A study of Mus musculus with 5 samples.

Results

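The genes described here are those of the cell cycle and of DNA replication: cyclins, cyclin-dependent kinases (CDKs) and their inhibitors, replication origin and fork proteins, E2F factors, mitotic kinases, kinetochore (CENP) proteins, condensins, Top2a and Mki67. A pattern of gene symbols chose them; it uses no measured value, but it was written with earlier results of these data known. They number 141 of the 20340 coding symbols in the expression table. The symbol pattern also catches genes whose known work lies outside division, such as the GTPase Cdc42 and its effectors, the neuronal kinase Cdk5 and the transcriptional CDKs. These were kept as members, in role groups of their own.

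Poly(A) RNA was sequenced from regions microdissected and snap-frozen from adult male wild-type C57BL/6 mice, with no treatment named. There were 2 biological replicates of the subventricular zone (SVZ) and 1 sample each of the olfactory bulb (OB), the dentate gyrus (DG) and the striatum (STR), the non-neurogenic control tissue of the design. The labels do not say whether a sample was pooled from several animals. Levels are FPKM, which scale fragments to transcript length and to the size of the library, summed over the transcripts of a symbol.

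Dividing cells commit to a round of division when D-type cyclins with Cdk4 or Cdk6 release E2F transcription factors from the RB proteins. E2F targets then license origins and supply nucleotides, and cyclin A and cyclin B with Cdk1 drive mitosis. In the adult mouse brain, stem cells of the SVZ give rise to rapidly dividing transit-amplifying cells and then to neuroblasts, which can still divide and migrate to the OB, while a smaller zone of dividing progenitors lies along the DG granule layer. Most cells of all 4 regions are neurons and glia that no longer divide. These are bulk tissues, so fewer cells of a type and less RNA per cell cannot be told apart.

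The dissections carried the markers of their regions, but the SVZ samples also carried striatal neuron markers at levels like those of STR. Summed over fixed lists, striatal neuron markers stood at 2603 FPKM in STR and at 3714 and 2733 in the SVZ samples, dentate granule neuron markers at 382 in DG and bulb neuron markers at 1123 in OB. Ependymal markers reached 284 and 112 FPKM in the SVZ samples and 5.34 to 15.3 elsewhere. The labels name no batch, but by their values the libraries were read as 2 sets that cut across the regions, SVZ sample 2 with STR, and SVZ sample 1 with OB and DG. Over 12695 coding symbols with a GC content, the difference between libraries of different sets had a Spearman rho with GC of 0.42 to 0.68 in size, and between libraries of the same set of at most 0.26. SVZ sample 2 also correlated more with STR (r = 0.968) than with SVZ sample 1 (r = 0.943) over 14029 symbols, as a description. This reading came from the data, so pooled differences are followed by those between libraries of the same set. FPKM values carry no counts, the depth is unknown, and DG listed 16725 transcripts at 0, where the other libraries listed 9564 to 10807. Each error below is a limma standard error, for which the SVZ pair supplied the only spread (SE, n = 2 SVZ samples and 1 of each other region), on differences in log2(FPKM + 1).

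S, G2 and M phase genes led the members that were highest in SVZ. In 10 members both SVZ samples lay at least 1 log2 unit above every other library: Top2a, Mki67, Rrm2, Ccna2, Ccnb1, Cdk1, Bub1, Cenpe, Cenpf and Ncaph. Over all coding symbols at 1 FPKM or more in a library, 1.48% showed this. With the size left aside, 60 members had both SVZ samples above the other 3 libraries, against 10.7% of coding symbols. They included 17 of 28 licensing and fork genes, 13 of 18 CENP genes and 9 of 19 mitotic genes, but 2 of 14 other CDKs and 0 of 18 CDC-named genes outside the cycle.

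In the order SVZ sample 1, SVZ sample 2, OB, DG and STR, Top2a (mm9 chr11:98854261-98885503), the topoisomerase that untangles chromosomes in G2 and mitosis, stood at 19.3, 13.8, 0.439, 1.56 and 0.195 FPKM. Mki67 (mm9 chr7:142881471-142908062), which encodes the proliferation antigen Ki-67, stood at 11.3, 7.38, 0.274, 1.38 and 0.336 FPKM. Rrm2 (mm9 chr12:25393119-25399011), the S phase subunit of ribonucleotide reductase, stood at 13.96, 10.4, 0.701, 0.322 and 0.469 FPKM. By the size rule above, which all of them met, both SVZ samples were high and the other 3 libraries low, without overlap. The next highest library was DG for Top2a and Mki67 and OB for Rrm2. On the log2 scale SVZ exceeded OB by 3.59 ± 0.42 for Top2a and by 2.99 ± 0.41 for Mki67, and exceeded DG by 2.75 ± 0.42 and 2.09 ± 0.41. For Rrm2 the differences were 2.94 ± 0.37 from OB and 3.31 ± 0.37 from DG.

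**Figure D1:**
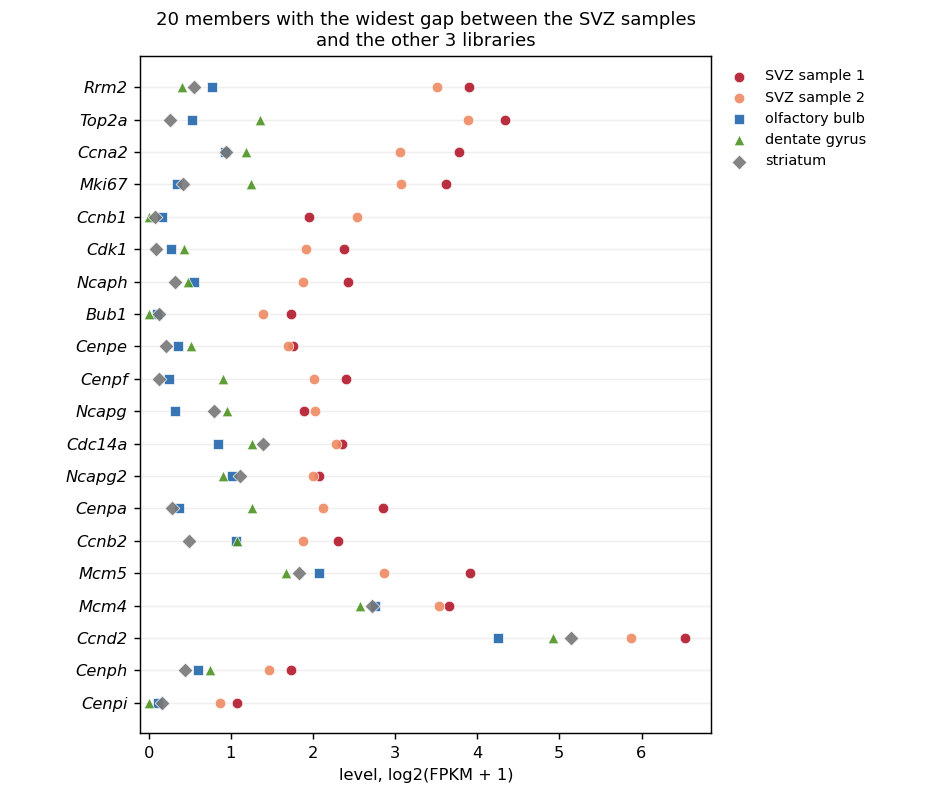
Levels of the 20 members with the widest gap between the lower SVZ sample and the highest other library, on a log2(FPKM + 1) axis. Each point is 1 library; for Top2a the SVZ samples at 19.3 and 13.8 FPKM lie far to the right of OB, DG and STR, which lie between 0.195 and 1.56.

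Promoter sequence is shown for 5 members with both SVZ samples above the other libraries, to set G2 and M genes beside helicase genes. The windows are from RefSeq on build GRCm38.p6, 250 bases before to 50 after the start, 5′ to 3′ on the gene's own strand. They are Top2a (chr11:99024140-99024439, minus strand), Mki67 (chr7:135716330-135716629, minus), Cdk1 (chr10:69352863-69353162, minus), Mcm3 (chr1:20820263-20820562, minus) and Mcm2 (chr6:88898731-88899030, minus). Capitals mark CCAAT boxes (CCAAT), the cell cycle genes homology region or CHR (TTTGAA), and E2F letters (TTTCCCGC, TTTGGCGC or TTCCCGCC, which can overlap each other), on either strand.
Top2a: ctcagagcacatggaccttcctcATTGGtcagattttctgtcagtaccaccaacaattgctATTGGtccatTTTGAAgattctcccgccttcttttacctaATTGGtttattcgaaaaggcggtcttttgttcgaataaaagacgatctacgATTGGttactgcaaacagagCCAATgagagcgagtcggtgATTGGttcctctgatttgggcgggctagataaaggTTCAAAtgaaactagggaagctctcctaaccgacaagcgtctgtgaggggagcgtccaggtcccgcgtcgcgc
Mki67: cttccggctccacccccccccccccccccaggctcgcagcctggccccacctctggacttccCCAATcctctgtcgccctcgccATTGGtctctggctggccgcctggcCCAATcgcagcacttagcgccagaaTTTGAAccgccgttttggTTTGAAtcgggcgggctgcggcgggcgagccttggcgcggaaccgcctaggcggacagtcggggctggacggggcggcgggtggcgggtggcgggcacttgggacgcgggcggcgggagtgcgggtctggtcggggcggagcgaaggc
Cdk1: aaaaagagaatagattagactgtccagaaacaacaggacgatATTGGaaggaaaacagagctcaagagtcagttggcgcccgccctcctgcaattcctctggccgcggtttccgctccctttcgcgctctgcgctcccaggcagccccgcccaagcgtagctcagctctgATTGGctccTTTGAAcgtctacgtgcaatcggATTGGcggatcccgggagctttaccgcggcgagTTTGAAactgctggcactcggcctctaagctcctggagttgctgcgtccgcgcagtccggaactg
Mcm3: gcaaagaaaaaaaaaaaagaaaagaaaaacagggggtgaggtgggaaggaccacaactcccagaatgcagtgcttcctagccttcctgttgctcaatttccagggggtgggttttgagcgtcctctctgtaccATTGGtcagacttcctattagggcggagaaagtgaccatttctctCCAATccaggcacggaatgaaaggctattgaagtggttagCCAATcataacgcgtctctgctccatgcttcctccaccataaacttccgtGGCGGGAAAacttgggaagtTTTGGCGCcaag
Mcm2: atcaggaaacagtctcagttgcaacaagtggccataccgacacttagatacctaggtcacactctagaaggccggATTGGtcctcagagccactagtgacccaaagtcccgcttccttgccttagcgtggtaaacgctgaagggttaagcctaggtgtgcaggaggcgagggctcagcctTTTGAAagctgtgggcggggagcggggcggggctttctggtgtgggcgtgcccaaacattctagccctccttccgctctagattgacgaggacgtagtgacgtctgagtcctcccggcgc
The windows of Top2a, Mki67 and Cdk1 held CHR and CCAAT letters and none of the E2F strings. The window of Mcm3 held E2F and CCAAT letters and no CHR string, but that of Mcm2 held CHR and CCAAT and no E2F string. Cdc45 matched Mcm2 in this, Rrm2 and Mcm10 held CCAAT only, and the condensin genes Ncapg and Ncapd2 held all 3 kinds. A window was found for 123 of the 141 members, 146 windows in all. Any E2F string was present in 21.2% of them, against 4.36% of the 17646 windows of coding symbols in the expression table and 3.21% of all 32851 windows. By role it was 45.2% of 31 licensing and fork windows, 35.0% of 20 CENP windows, 33.3% of 9 windows for condensins, Top2a and Mki67, 0 of 20 mitotic windows and 0 of 12 windows of other CDKs. The CHR string was present in 24.0% of member windows, 40.0% of the mitotic ones, 66.7% of the 9 for condensins, Top2a and Mki67 and 5 of 20 windows for CDC-named genes outside the cycle, against 17.9% of all windows and 15.0% of those of coding symbols. CCAAT was present in 52.1% of member windows against 37.4% of all windows and 38.2% of those of coding symbols. Of the 10 members with both SVZ samples highest by 1 log2 unit, 9 had a window: 0 held an E2F string, 4 held CHR and 8 held CCAAT. A match of letters is a description, not a bound site, and a missing match says only that these letters are not in this window. Ccna2, Ccnd1, Ccnd2, Ccne2, Cdk5, Cdk17, Cdk19, Cdc23, Cdc25c, Cdc42bpg, Mcm4, Pole, Rrm2b, E2f4, E2f5, Aurkb, Aurkaip1 and Plk1s1 had no entry.

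Against STR, the comparison of the germinal tissue with its non-neurogenic neighbour, 39 of 132 members tested were at least 1 log2 unit higher in SVZ and 0 were lower. A member was tested when either region had a library at 1 FPKM or above. Over all coding symbols 7.00% were higher and 1.12% lower. The median difference over the 141 members was 0.52, beside 0.24 over the coding symbols tested and 0.12 over those above 0 in some library. Within the library set, SVZ sample 2 minus STR gave 29 members higher and 0 lower, where 3.99% and 0.833% of coding symbols passed. With SVZ sample 1 alone the count was 50, where 19.3% of coding symbols passed.

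Against OB, the target of the migrating neuroblasts, 27 of 133 members were higher in SVZ and 6 were lower, with 7.18% and 14.8% of coding symbols. The members' median was 0.32, where all coding symbols tested had a median of -0.24. SVZ sample 1 minus OB, within the set, gave 33 higher and 3 lower (7.63% and 9.28%). SVZ sample 2 minus OB, across the sets, gave 24 higher and 15 lower (8.12% and 27.1%).

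Against DG, the other niche in which neurons are born, 32 of 132 members were higher in SVZ and 3 were lower, with 10.6% and 7.97% of coding symbols. The members' median was 0.35 and that of all coding symbols tested 0.02. SVZ sample 1 minus DG, within the set, gave 41 higher and 3 lower (12.6% and 5.68%), and SVZ sample 2 gave 24 higher and 8 lower (10.4% and 15.7%). In 20 members SVZ was higher by 1 log2 unit in each within-set difference at once, namely sample 2 minus STR, sample 1 minus OB and sample 1 minus DG, the last 2 of which share SVZ sample 1, where 2.23% of coding symbols passed. These were the 10 above with Aurka, Aurkb, Bub1b, Ccnb2, Cdc20, Cenpa, Mcm2, Mcm3, Mcm5 and Plk1.

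In limma, with 1 residual degree of freedom, 0 coding symbols had an adjusted p under 0.05 in any of the 6 pairs of regions. The smallest Benjamini-Hochberg adjusted p of a member in limma was 0.95 for SVZ minus STR, 0.118 for SVZ minus OB and 0.241 for SVZ minus DG. At an unadjusted p under 0.05, 30 members were higher and 0 lower against STR (3.53% of coding symbols either way), 23 and 3 against OB (12.5%), and 25 and 2 against DG (11.1%). Without the trend in limma the counts against STR were 27 and 0 (4.97%). Between the other regions few members passed: 4 higher and 0 lower for OB minus STR (11.1%), 2 and 1 for DG minus STR (8.60%) and 2 and 0 for OB minus DG (10.5%). A limma fit limited to symbols at 1 FPKM or more in some library, added after the data were seen, called 12 members between SVZ and OB (5.01% of coding symbols). Of these, Bub1, Ccna2, Ccnb1, Cdk1, Cenpa, Cenpe, Cenpf, Mki67, Ncapg, Rrm2 and Top2a were higher in SVZ and Cdkn1a lower. The same fit called 5 members higher in SVZ than in DG (2.92%), namely Bub1, Ccnb1, Cdc42ep3, Rrm2 and Top2a, and 0 against STR, where the smallest adjusted p in limma was 0.103. The counts that follow are therefore counts of size. Beside them, 7.00%, 7.18% and 10.6% of coding symbols were higher in SVZ than in STR, OB and DG by 1 log2 unit. With SVZ sample 2 alone these shares were 3.99%, 8.12% and 10.4%, and with sample 1 alone 19.3%, 7.63% and 12.6%.

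**Figure D2:**
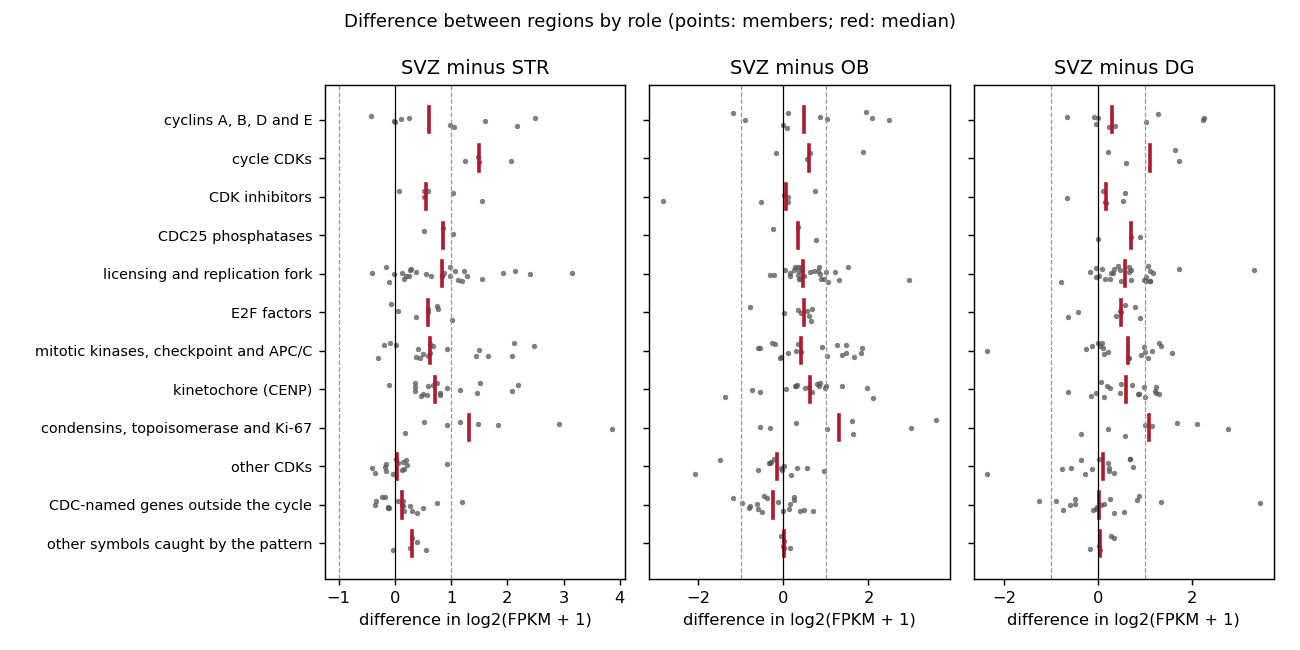
Difference between SVZ and STR, OB or DG for each of the 141 members by role, in log2(FPKM + 1), with points for members, red bars for medians and dashed lines at 1 log2 unit either way. Condensins, topoisomerase and Ki-67 have medians of 1.32, 1.31 and 1.07, and CDC-named genes outside the cycle 0.13, -0.25 and 0.03.

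Among the 10 cyclins of types A, B, D and E, 4 were at least 1 log2 unit higher in SVZ against each of STR, OB and DG, comparisons that share the SVZ samples: Ccna2, Ccnb1, Ccnb2 and Ccnd2. With SVZ sample 2 alone, Ccna2 and Ccnb1 kept that size in all 3 comparisons, Ccnb2 only against STR and Ccnd2 only against OB. Ccna2, the cyclin of S phase and G2, stood at 12.8, 7.35, 0.911, 1.28 and 0.915 FPKM, and Ccnb1, the main mitotic cyclin, at 2.88, 4.80, 0.115, 0 and 0.0518. Ccnb1 was higher in SVZ sample 2 than in sample 1, the opposite order to most of the others, and was listed at 0 in DG. Ccnb2, its relative, stood at 3.94, 2.67, 1.09, 1.11 and 0.405 FPKM, a narrower gap. Ccna2 exceeded STR by 2.49 ± 0.52, OB by 2.49 ± 0.52 and DG by 2.23 ± 0.52, and Ccnb1 exceeded STR by 2.17 ± 0.34 and OB by 2.09 ± 0.34. Ccna2 overlaps Exosc9, and Ccnb1 and Ccnb2 each have 1 named pseudogene copy that could share reads.

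The D-type cyclins, which answer growth signals in G1, did not move together. Ccnd2 stood at 91.0, 57.7, 18.0, 29.4 and 34.3 FPKM and was highest in both SVZ samples and lowest in OB. Ccnd1 stood at 7.68, 6.47, 13.9, 7.50 and 9.82, highest in OB and next in STR. Ccnd3 stood at 17.7, 6.08, 25.2, 10.9 and 4.81, so that the SVZ samples lay on both sides of DG. Ccnd2 exceeded OB by 1.95 ± 0.44, whereas SVZ minus OB was -0.89 ± 0.37 for Ccnd1 and -1.19 ± 0.85 for Ccnd3. Within the set, SVZ sample 1 minus OB was -0.49 for Ccnd3, under the size of 1 log2 unit. Ccne1 and Ccne2, the E-type cyclins of the G1 to S passage, ranged from 0.885 to 6.63 FPKM over the libraries, with Ccne1 highest in DG. Ccna1 and Ccnb3, known from germ cells, stayed below 1 FPKM in all 5 libraries.

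Of the CDKs that drive division, Cdk1, the mitotic kinase, stood at 4.20, 2.79, 0.208, 0.353 and 0.0667 FPKM, with both SVZ samples far above the rest. Cdk2, the S phase kinase, stood at 4.26, 2.49, 1.92, 0.378 and 0.511, so OB came close to SVZ sample 2. Cdk4 stood at 68.5, 30.6, 51.5, 39.8 and 15.8 and Cdk6 at 2.37, 1.58, 0.895, 0.961 and 0.237. All 4 exceeded STR by 1 log2 unit or more in SVZ. Against OB this held for Cdk1 only, with a difference of 1.88 ± 0.28, and against DG for Cdk1 and Cdk2, with 1.71 ± 0.28 and 1.64 ± 0.38. Cdk4, the partner of the D-type cyclins, had OB and DG between the SVZ samples, and within its set SVZ sample 2 minus STR was 0.91. Cdk4 overlaps Tspan31 and Cdk2 overlaps Pmel, and without strand information such reads cannot be told apart. Of the CDC25 phosphatases, which activate CDKs, Cdc25a stood at 2.55, 2.61, 3.23, 1.198 and 0.744 FPKM, lowest in STR and highest in OB.

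Among the CDK inhibitors, Cdkn1a (mm9 chr17:29227868-29237667), which encodes p21 and is induced by p53 among other signals, stood at 17.2, 10.2, 100.2, 8.89 and 8.48 FPKM. OB was far above all other libraries, which is the pattern of 5.42% of coding symbols by 1 log2 unit and of no other member. SVZ minus OB was -2.83 ± 0.48, OB minus DG 3.35 and OB minus STR 3.42, or 2.71 when bridged within the library sets as OB minus SVZ sample 1 plus SVZ sample 2 minus STR. Cdkn1b (p27), an inhibitor of cyclin E and cyclin A complexes, stood at 26.1, 22.3, 22.2, 22.4 and 11.3, level in the 3 neurogenic regions and lowest in STR. Cdkn2c (p18), which blocks Cdk4 and Cdk6, stood at 4.09, 3.16, 1.77, 2.08 and 0.564, highest in both SVZ samples and lowest in STR. These 2 were the inhibitors at least 1 log2 unit above STR, by 1.03 ± 0.29 and 1.56 ± 0.30. With SVZ sample 2 alone the Cdkn1b difference was 0.92. Cdkn2a and Cdkn2b stayed below 1 FPKM in every library. Cdkn2d ranged from 18.4 to 42.8 FPKM, but the table places its 2 models at separate loci and its level is uncertain. Beside the OB value of Cdkn1a, the 4 endothelial markers summed to 96.3 FPKM in OB and 31.2 to 42.4 elsewhere. Cldn5 made up 70.8 of the OB sum, and Cdh5 was also highest in OB, at 7.13 FPKM against 3.18 to 4.50 elsewhere. Flt1 was higher in STR and in SVZ sample 2 than in OB, and Pecam1 stood at 7.85 in OB and 7.13 in SVZ sample 1. The part of these cells was not tested.

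Replication licensing loads the Mcm2 to Mcm7 helicase onto origins marked by the origin recognition complex. Of the 28 licensing and fork genes, 10 were higher in SVZ than in STR by 1 log2 unit, 6 than in OB and 9 than in DG, and 0 were lower in each case. The medians were 0.84, 0.46 and 0.57. With SVZ sample 2 alone the counts were 7, 5 and 5 (3.99%, 8.12% and 10.4% of coding symbols). With sample 1 alone they were 12, 7 and 11 (19.3%, 7.63% and 12.6%). Mcm2 stood at 12.1, 4.93, 2.81, 3.36 and 1.01 FPKM, Mcm3 at 10.5, 4.996, 1.89, 3.22 and 1.18, and Mcm5 at 14.1, 6.28, 3.20, 2.18 and 2.57. In these the SVZ samples were the highest 2 libraries, with sample 1 at 2.10 to 2.45 times sample 2. SVZ minus STR was 2.13 ± 0.73, 1.93 ± 0.63 and 1.55 ± 0.70. Mcm4 stood at 11.7, 10.6, 5.75, 4.94 and 5.61 and Mcm7 at 14.4, 12.1, 9.73, 5.58 and 5.52, with smaller gaps and nearly equal SVZ samples. Mcm7 overlaps Ap4m1.

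Mcm6 departed from the other 5 helicase subunits. The gene (mm9 chr1:130228168-130256233) stood at 16.1, 8.99, 5.50, 21.5 and 1.47 FPKM, so DG was the highest library, while the other 5 subunits lay between 2.18 and 5.58 FPKM in DG. SVZ minus DG was -0.78 ± 0.56 for Mcm6 and 0.98 to 1.72 for the others. STR was lowest by at least 1 log2 unit for Mcm6 and for no other member, a pattern of 0.527% of coding symbols. DG minus STR was 3.19 and, bridged, 2.41, and SVZ sample 2 minus STR was 2.02. With SVZ sample 2 alone, Mcm6 was over 1 log2 unit lower in SVZ than in DG, and with sample 1 alone the difference was -0.40.

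In the origin recognition complex, Orc2 to Orc6 ranged from 5.75 to 17.3 FPKM over all libraries, and Orc1, the subunit known to be made in cycling cells, stood at 0.336, 0.306, 0.109, 0.301 and 0.0886, below 1 FPKM throughout. Orc5 stood at 12.6, 14.3, 10.2, 5.75 and 11.9 and exceeded DG by 1.10 ± 0.34, and Orc4 was 1 log2 unit lower in OB than in STR, at 7.33 against 17.3. Cdc6, which loads the helicase, stood at 1.05, 0.988, 0.0938, 0.234 and 0.122 FPKM. Both SVZ samples lay above the rest, and SVZ minus STR was 0.85 ± 0.05, which understates the ratio at such low levels. Cdc45, a helicase cofactor, stood at 5.71, 2.05, 2.54, 1.88 and 0.942 and Mcm10 at 1.94, 0.874, 0.221, 0.439 and 0.124. Of the polymerase subunits, Pole, the leading strand polymerase, stood at 2.38, 1.22, 0.504, 0.281 and 0.122. Pole3 and Pole4, which also serve in chromatin complexes, ranged from 13.0 to 35.7 FPKM with no SVZ excess of 1 log2 unit.

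The ribonucleotide reductase subunits differed in pattern. Rrm2, restricted to S phase, had the values above, with SVZ minus STR of 3.15 ± 0.37. Rrm1, the large subunit, stood at 16.5, 11.4, 10.5, 8.40 and 5.44 FPKM. Rrm2b, the p53-induced subunit used for repair and mitochondrial DNA, stood at 8.20, 10.4, 3.96, 9.63 and 10.4, lowest in OB and alike in SVZ, DG and STR. Pcna, the sliding clamp, stood at 26.7, 56.4, 21.7, 16.8 and 32.6, and STR lay between the SVZ samples. SVZ minus STR was 0.25 ± 0.64 for Pcna, whose 2 named pseudogene copies could share reads.

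**Figure D3:**
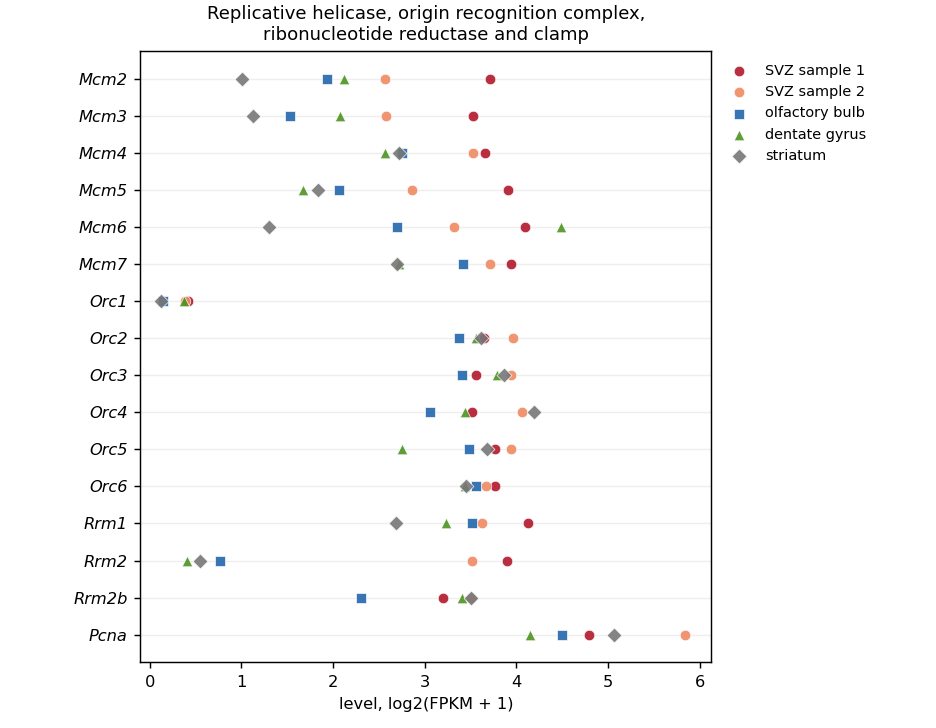
Levels of the helicase, origin recognition, ribonucleotide reductase and clamp genes in each library, on a log2(FPKM + 1) axis with 1 point per library. Rrm2 has the widest SVZ gap, Mcm6 is highest in DG at 21.5 FPKM, and Orc2 to Orc6 cluster between 5.75 and 17.3 FPKM.

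Of the 8 E2F factors, E2f8 alone reached 1 log2 unit in SVZ over STR, by 1.01 ± 0.34, or 0.71 with SVZ sample 2 alone, and 0 did so over OB or DG. With SVZ sample 1 alone E2f1, E2f4 and E2f7 also reached that size over STR (19.3% of coding symbols), and E2f7 and E2f8 over DG (12.6%). E2f8, an atypical repressor, stood at 1.75, 0.808, 0.477, 0.211 and 0.105 FPKM, E2f7, its partner, at 1.11, 0.503, 0.214, 0.0303 and 0.0535, and the activator E2f2 at 1.11, 0.607, 0.148, 0.328 and 0.0895. All 3 were highest in the SVZ samples at low levels. E2f1, another activator, stood at 8.53, 4.06, 4.51, 4.36 and 3.61, with only SVZ sample 1 apart. E2f3 stood at 8.91, 10.7, 5.88, 15.7 and 10.3, highest in DG and lowest in OB, with OB minus DG of -1.28. E2f4, a repressor of resting cells, was the highest of the family in SVZ sample 1, OB and DG, at 27.6, 33.6 and 26.2 FPKM.

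Mitotic kinases, the spindle checkpoint and the anaphase-promoting complex (APC/C) made up 19 members. Of these 6 were higher in SVZ than in STR, 8 than in OB and 5 than in DG by 1 log2 unit (7.00%, 7.18% and 10.6% of coding symbols). Plk5 alone was lower, in the DG comparison. With SVZ sample 2 alone the counts were 6, 5 and 4 (3.99%, 8.12% and 10.4%). With sample 1 alone they were 7, 10 and 8 (19.3%, 7.63% and 12.6%). Aurkb, a chromosomal passenger kinase, stood at 6.14, 1.64, 0.202, 1.203 and 0.0254 FPKM, Plk1, the polo kinase of mitosis, at 7.26, 2.88, 1.19, 2.59 and 0.794, and Cdc20, the APC/C activator, at 10.3, 2.81, 1.09, 1.95 and 0.184. The SVZ samples differed 2.52 to 3.75 times in these, and DG came close to SVZ sample 2 for Plk1. SVZ minus STR was 2.08 ± 0.81, 1.66 ± 0.67 and 2.47 ± 0.91. Bub1, a checkpoint kinase, stood at 2.32, 1.63, 0.0706, 0 and 0.0913, with SVZ minus STR of 1.44 ± 0.20, and Bub1b at 6.06, 2.91, 1.81, 1.08 and 0.217. Aurka, the centrosomal kinase, stood at 5.02, 3.14, 1.09, 1.63 and 0.775. Aurka overlaps Cstf1 and Cdc20 overlaps Elovl1.

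The APC/C subunits Cdc16, Cdc23, Cdc26 and Cdc27, which neurons also use, ranged from 9.38 to 33.0 FPKM with 0 differences of 1 log2 unit between SVZ and the other regions. Bub3 ranged from 32.0 to 54.1 FPKM. Plk2, known as an activity-induced kinase of neurons, stood at 175.8, 149.8, 45.3, 65.9 and 107.3 FPKM, high in the SVZ samples, next in STR and lowest in OB. Plk5, a polo-like gene expressed in the nervous system, stood at 20.01, 5.12, 8.23, 57.0 and 7.06. DG was highest by at least 1 log2 unit for Plk5 and Cdc40, where 2.51% of coding symbols showed this. SVZ minus DG for Plk5 was -2.35 ± 1.04, or -1.46 with sample 1 within the set, the SVZ samples differing 3.91 times. Dentate granule neuron markers stood at 382 FPKM in DG and at 2.66 to 6.12 elsewhere, and their part in the Plk5 value was not tested.

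The 18 CENP genes had medians of 0.71, 0.64 and 0.60 for SVZ minus STR, OB and DG. By 1 log2 unit 5, 3 and 5 members were higher (7.00%, 7.18% and 10.6% of coding symbols), and Cenpv was lower than in OB. Cenpa, the centromeric histone, stood at 6.23, 3.34, 0.296, 1.39 and 0.222 FPKM. Cenpf, a G2 and M kinetochore protein, stood at 4.27, 3.05, 0.188, 0.877 and 0.0947, and Cenpe, a kinetochore motor, at 2.39, 2.23, 0.280, 0.430 and 0.154. For Cenpa and Cenpf the order was SVZ, then DG, then OB and STR. Cenpe was nearly equal in the SVZ samples, and exceeded STR by 1.52 ± 0.10, OB by 1.37 ± 0.10 and DG by 1.21 ± 0.10. Cenpb, which binds centromeric repeats in all cells, ranged from 59.0 to 112 FPKM. Cenpv stood at 29.8, 12.03, 50.8, 30.1 and 11.6, highest in OB, with SVZ minus OB of -1.37 ± 0.74 and -0.75 within the set.

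Among the condensins, which compact chromosomes, Ncaph of condensin I stood at 4.37, 2.68, 0.464, 0.394 and 0.253 FPKM and Ncapg of the same complex at 2.73, 3.08, 0.249, 0.938 and 0.739. Ncapg2 of condensin II stood at 3.20, 3.01, 1.03, 0.866 and 1.16. In all 3 the SVZ samples were the highest libraries, and Ncaph exceeded STR by 1.83 ± 0.33, OB by 1.60 ± 0.33 and DG by 1.67 ± 0.33. Ncapd3 and Ncaph2 of condensin II did not show this order: Ncapd3 stood at 9.96, 6.12, 10.05, 6.63 and 6.81 and Ncaph2 at 42.1, 21.0, 44.1, 38.7 and 20.6. Ncaph2 overlaps Sco2 and Tymp, and Ncapg overlaps Lcorl.

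The groups of other CDKs and of CDC-named genes served as a contrast within the set, though not every gene in them works wholly outside the cycle. Of 14 other CDKs, 0 were higher in SVZ by 1 log2 unit in any of the 3 comparisons, and of 18 CDC-named genes 1 was higher than in STR, 0 than in OB and 2 than in DG, namely Cdc42ep4 against STR and Cdc42ep1 and Cdc42ep3 against DG. With SVZ sample 1 alone Cdk20 and Cdc42bpg exceeded STR and Cdk17 exceeded OB by that size. With sample 2 alone Cdc5l exceeded OB and DG. In the other direction, SVZ minus OB was -1.18 ± 0.18 for Cdc42ep5. With sample 2 alone 5 CDC-named genes were lower than in OB by that size, where 27.1% of coding symbols were. Cdk5 stood at 51.4, 33.2, 52.1, 40.9 and 41.0 FPKM, and the GTPase Cdc42 ranged from 63.5 to 108. Cdk14, a membrane-tethered kinase active in Wnt signalling, stood at 12.6, 12.2, 55.4, 67.7 and 14.2. OB and DG were both high, SVZ and STR were alike, and SVZ minus OB and DG were -2.07 ± 0.26 and -2.36 ± 0.26. Cdk16, a relative found in neurons, stood at 84.8, 40.5, 165, 101 and 60.2, with SVZ minus OB of -1.48 ± 0.65 and -0.96 within the set.

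Cdc42ep3 (mm9 chr17:79733365-79757362), an effector of Cdc42 that acts on septins and actin, stood at 19.4, 22.4, 12.5, 0.998 and 22.5 FPKM. DG was lowest by at least 1 log2 unit, the pattern of 1.85% of coding symbols and of no other member, and SVZ exceeded DG by 3.45 ± 0.33. Cdc40, a splicing factor, stood at 21.4, 16.0, 16.6, 45.8 and 16.5, with DG apart from 4 like libraries and SVZ minus DG of -1.26 ± 0.34. Cdc42ep1 and Cdc42ep2 were also lowest in DG, at 1.73 and 2.45 FPKM against 4.39 to 7.98 elsewhere, while Cdc42ep4 was highest there at 37.3 FPKM. Cdc42ep1 overlaps Lgals2.

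**Figure D4:**
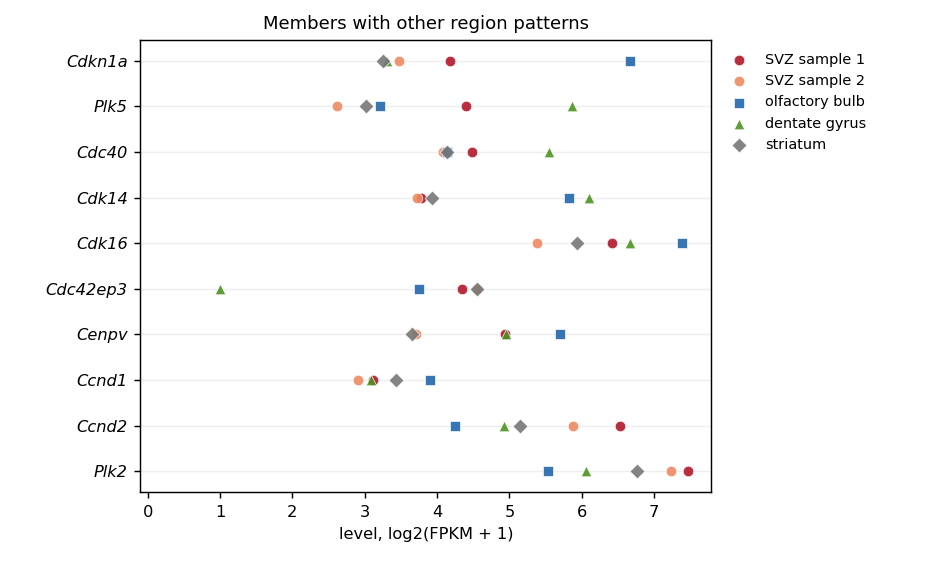
Levels of 10 members with other region patterns in each library, on a log2(FPKM + 1) axis with 1 point per library. Cdkn1a is highest in OB at 100.2 FPKM, Plk5 and Cdc40 in DG at 57.0 and 45.8, and Cdc42ep3 is lowest in DG at 0.998.

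Between the other regions the members' counts lay below the shares of coding symbols as deposited. After scaling by median ratios they still did, except that the members lower in OB than in STR came level with the share. OB minus STR had 23 of 105 members higher and 3 lower, where 30.6% and 6.69% of coding symbols passed. DG minus STR had 16 of 109 higher and 4 lower (17.5% and 8.28%). Both cross the library sets, and bridged through the SVZ samples OB minus STR gave 3 higher and 3 lower (11.0% and 5.34%) and DG minus STR 5 higher and 5 lower (6.62% and 8.99%). Those higher when bridged were Cdkn1a, Cdk14 and Cdc25a in OB, and Mcm6, Cdk14, Plk5, Cdc40 and Cdc42ep4 in DG. After scaling by median ratios the splits became 8 higher and 15 lower of 103 for OB minus STR (14.5% and 14.4% of coding symbols), and 9 and 9 of 109 for DG minus STR (11.1% and 12.7%). The median of all coding symbols for OB minus STR moved from 0.53 to 0.01 with this scaling. Under some other settings counts of lower members lay above their shares. Quantile normalization gave 16 of 105 lower for OB minus STR (14.2%) and 11 of 110 for OB minus DG (7.77%). For OB minus DG a pseudocount of 0.1 FPKM gave 11 of 110 lower (6.56%), and 0.5 FPKM gave 9 (5.98%).

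Between OB and DG, which lie in the same set, 6 of 110 members were higher in OB and 5 in DG (14.4% and 5.28%). Those higher in OB were Ccnd3, Cdk2, Cdkn1a, Cdc42ep1, Cdc42ep2 and Cdc42ep3, and those higher in DG were Mcm6, Rrm2b, E2f3, Plk5 and Cdc40. By role the medians of OB minus DG were -0.05 for mitotic genes, -0.0046 for CENP genes and 0.09 for condensins, Top2a and Mki67. Chosen after their values were seen, some genes lay higher in DG without reaching 1 log2 unit: OB minus DG was -0.90 for Mki67, -0.83 for Top2a, -0.88 for Cenpa, -0.87 for Aurkb and -0.66 for Cenpf, while it was 0.44 for Bub1b. Ccnb1, Bub1 and Cenpi were listed at 0 in DG and stood at 0.115, 0.0706 and 0.0840 FPKM in OB. Summed transit-amplifying cell markers were 73.4 and 33.2 FPKM in SVZ, 62.3 in OB, 13.1 in DG and 6.26 in STR, and neuroblast markers 521 and 359, 1062, 168 and 176. The neuroblast sum was highest in OB, where Tubb3, a general neuronal gene, made up 649 of it. Dcx, Dlx1, Dlx5, Sp8 and Sp9 of the same list stood at 37.5, 167, 52.85, 45.4 and 79.7 FPKM in OB. Each of them was lower in both SVZ samples. Sox11 and Cd24a went the other way, at 8.26 and 21.6 FPKM in OB and higher in both SVZ samples. Oligodendrocyte precursor markers, another type that divides in adult brain, summed to 128 and 75.8 in SVZ, 139 in OB, 88.4 in DG and 82.1 in STR. The part of these cell types in the member levels was not tested.

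Genes of the cycle outside the symbol pattern were read from a separate list. Of 90 listed, 89 were tested. By 1 log2 unit 55 were higher in SVZ than in STR, where 7.00% of coding symbols were, 42 than in OB (7.18%) and 43 than in DG (10.6%), and 0 were lower, with medians of 1.17, 0.92 and 0.97. The 45 mitotic genes among them gave 36, 34 and 32, and the 32 genes of the fork and nucleotide supply 15, 5 and 9. The 12 tested genes of the RB family and checkpoint gave 4, 3 and 2, with medians over the 13 listed of 0.65, 0.40 and 0.36. Birc5, which encodes survivin, stood at 7.68, 5.33, 0.473, 2.12 and 0.367 FPKM, and Kif11, a spindle motor, at 7.10, 6.06, 0.325, 0.606 and 0.410. Uhrf1, which maintains DNA methylation at the fork, stood at 7.68, 4.51, 0.517, 0.482 and 0.170. Rb1, the retinoblastoma gene, ranged from 11.7 to 14.1 over all libraries.

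The spread between the SVZ samples ran with base composition. Over the 133 members at 1 FPKM or more in a library, SVZ sample 1 minus sample 2 had a Spearman rho of 0.70 with the GC content of the transcript, given as a description across genes that share the same libraries. Over 12695 coding symbols the same difference had a rho of 0.68, so the members were close to coding symbols at large. Aurkb, Cdc20, Plk1 and Mcm2, at 52.5% to 56.0% GC, were 2.45 to 3.75 times higher in sample 1. Top2a, Mki67, Rrm2 and Cenpe, at 42.9% to 46.6% GC, were 1.07 to 1.53 times higher, and Ccnb1 and Pcna, at 44.2% and 45.3%, were lower in sample 1. The part of base composition in the differences between regions was not tested.

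**Figure D5:**
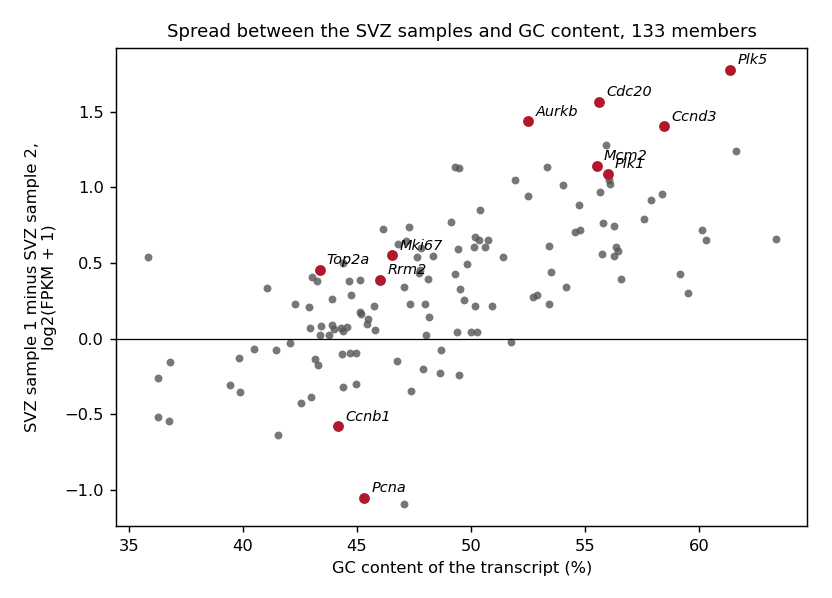
Difference between SVZ sample 1 and SVZ sample 2 in log2(FPKM + 1) against the GC content of the transcript in percent, for 133 members, with 11 of them named in red. Plk5 at 61.4% GC and Aurkb at 52.5% lie well above 0, and Pcna at 45.3% lies below.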

How the data were processed

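The authors deposited FPKM values for RefSeq and catalogue transcripts in the 5 libraries. CASAVA, TopHat 1.2.0, Cufflinks 1.0.0 and build mm9 are named, with no role or order, per the submitters' processing notes; strandedness was not stated. The deposited FPKM carry no counts, so depth is unknown and no counting interval could be given. Per the labels, the SVZ samples are biological replicates, while each other region has 1 sample.

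FPKM were summed over the transcripts of a symbol (176 RefSeq transcripts for 141 members). A further symbol matched by the pattern is not reported here. Differences are on log2(FPKM + 1), which understates the folds of low genes, and members were counted at 1 log2 unit among symbols at 1 FPKM or more in either region. limma 3.58.1 (R 4.3.3; trended empirical Bayes, tested on simulated data) was fitted to all coding symbols with 4 region groups, with Benjamini-Hochberg adjustment over the symbols tested. Its 1 residual degree of freedom is the SVZ pair. OB, DG and STR are assumed to vary like it.

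The members, roles, related list and markers were chosen with earlier results of these data known. Within each role, the genes to name were the up to 4 highest members and the up to 4 with the largest SVZ minus STR difference. Added were the up to 2 with the largest SVZ minus OB and SVZ minus DG difference, and those higher elsewhere than in SVZ. The rule gave 82 named members, and the text leaves some of them out. Others in the text are examples chosen after their values were seen. Of the members, 40 overlap another coding gene and 8 stayed below 1 FPKM in every library (Aurkc, Ccna1, Ccnb1ip1, Ccnb3, Cdk15, Cdkn2a, Cdkn2b and Orc1). Coordinates of genes are mm9, counted from 1; promoter windows are RefSeq GRCm38.p6, and GC content is from the longest GENCODE M21 transcript matched by symbol (12695 of the 14029 symbols at 1 FPKM or more in a library). Alternatives covered the pseudocount, the filter, scaling, the size, 1 transcript per symbol, the limma trend, each SVZ replicate left out and bridging through the SVZ.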

Additional observations from a re-analysis of the deposited data

How the results depend on the processing

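No paired analysis was possible because OB, DG and STR have 1 sample each, so the regions share fewer than 2 replicate numbers. The precision is limited by the SVZ pair, the unknown depth and the mixture of library sets. Counts of members are given here as higher and lower by 1 log2 unit unless the size was changed. Among 4592 values of named members under alternatives, 3918 kept within the replicate spread, 667 moved beyond it and 7 reversed. Of 1344 role counts 267 moved by over 1.5 times.

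Bridging through the SVZ reversed Cenpm in OB minus STR (-0.10) and, in DG minus STR, Aurkb (-0.33), Ccnd3 (-0.37), Cdc20 (-0.25), E2f4 (-0.0028), Mcm2 (-0.026) and Plk1 (-0.089). It left 3 members higher in OB and 5 in DG than in STR; the cause was not tested.

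A size of 2 log2 units gave 13 members higher for SVZ minus STR (1.48% of coding symbols). It gave 6 higher and 2 lower for SVZ minus OB (2.07% and 3.59%), and 6 and 2 for SVZ minus DG (2.9% and 2.12%). The counts were 3 and 0 for OB minus STR (6.4% and 2.0%) and 4 and 1 for DG minus STR (3.42% and 2.44%). For OB minus DG they were 2 and 1 (3.67% and 1.46%). A filter at 5 FPKM, which tests fewer genes, gave 22 of 90 members higher for SVZ minus STR (6.33% of coding symbols). It gave 16 of 91 for SVZ minus OB (6.87%) and 17 of 91 for SVZ minus DG (9.8%). A pseudocount of 0.1 FPKM gave 43 and 49 higher for SVZ minus OB and DG (9.63% and 14.6% of coding symbols). It gave 5 and 7 lower for OB and DG minus STR (8.12% and 10.6%). For OB minus DG it gave 10 higher and 11 lower (18.2% and 6.56%), where 0.5 FPKM gave 9 lower (5.98%). Median ratio scaling gave 8 higher and 15 lower for OB minus STR (14.5% and 14.4%) and 9 and 9 for DG minus STR (11.1% and 12.7%). Quantile normalization gave 20 higher for SVZ minus DG (9.38%) and 6 higher and 16 lower for OB minus STR (14.3% and 14.2%). It gave 8 lower for DG minus STR (11.3%) and 3 higher and 11 lower for OB minus DG (8.95% and 7.77%). Taking the highest transcript gave 5 and 7 lower for OB and DG minus STR (7.37% and 9.15%).

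Leaving out either SVZ replicate gave SVZ minus STR 29 to 50 higher, SVZ minus OB 24 to 33 higher and 3 to 15 lower, and SVZ minus DG 24 to 41 higher and 3 to 8 lower. In limma, 0 calls held with or without the trend. Fitting only symbols at 1 FPKM or more in a library, chosen after seeing the data, gave 692, 397, 327, 117 and 329 calls over all coding symbols for SVZ minus OB, SVZ minus DG, OB minus STR, DG minus STR and OB minus DG, of which 12 and 5 were members in the first 2; it differs in having fewer genes in the fit.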

Other observations

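The authors' long noncoding RNA catalogue holds 60 transcripts within 5 kb of 36 members, of which 22 reached 1 FPKM in a library. Beside Cdkn1b (p27), 2 transcripts of 1 catalogue locus start on the plus strand at chr6:134879102-134901665 and chr6:134879118-134902916 (mm9). In the order SVZ sample 1, SVZ sample 2, OB, DG and STR, the first stood at 1.74, 3.09, 0.459, 1.52 and 0.201 FPKM and the second at 2.74, 0.533, 0.0461, 0 and 0.0367. The SVZ samples were thus apart in opposite directions for these models, and STR was low in both. Near Cdk4, a transcript at chr10:126507490-126508158 stood at 3.70, 2.40, 2.31, 0.628 and 1.39 FPKM, lowest in DG, and near Pole2 a transcript at chr12:70298198-70300855 stood at 15.1, 8.13, 14.1, 10.5 and 8.66, well above the 0.252 to 1.56 FPKM of Pole2 itself. These levels were chosen after their values were seen, and no test was run on them.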
